A study of Mus musculus with 3 samples.

Results

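The mouse genome carries its replication-type histone genes in clusters, and all 67 genes whose symbol begins with Hist1h, Hist2h, Hist3h or Hist4h, of 31053 genes in the files, were followed across the liver cells of this study. They were chosen by that prefix, and the set was picked because Hist1h1e and Hist1h4d were known to be lower in endothelial cells of the day 21 library. Those 2 values, and all others of endothelial cells at day 21 over control, are therefore given as a description. Of the 67 members, 6 encode the linker histone H1 and 61 encode core histones, namely 18 H2A, 18 H2B, 12 H3 and 13 H4 genes.

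Livers of female Balb\c mice were perfused and dissociated, and the non-parenchymal cells, the fraction left once most hepatocytes are removed, were profiled by 10x Genomics 3' single-cell RNA sequencing. The day 21 library came from mice carrying 4T1 cells, a transplantable mammary carcinoma line of BALB/c origin, for 21 days after orthotopic injection, at a labelled age of 11 weeks. The day 4 library came from mice 4 days after the same injection, labelled 8 weeks, and the control library from mice injected with PBS, labelled 8 weeks. Each group was 1 library, the number of mice behind it was not stated, and the day 21 group also differed from the control in age, so the tumour, age and library cannot be told apart.

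Core histones H2A, H2B, H3 and H4 form the octamer that DNA wraps around, and linker histone H1 binds where the DNA enters and leaves it. Most of these genes are transcribed in S phase, and their mRNAs classically end in a stem loop in place of a poly(A) tail, bound by the stem-loop binding protein Slbp. Some members also give longer, polyadenylated transcripts, above all in differentiated or resting cells. The labels state that poly(A) RNA was captured, so a count in these libraries reports the polyadenylated or internally primed transcripts of a member and not its whole mRNA.

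The stem loops are shown because they separate the members into those annotated to end there and those with a longer transcript. In GENCODE M21 (GRCm38), a stem loop was found in 46 of the 67 members, in 8 spellings. The stem arms are in capitals and the loop in lower case, 5′ to 3′ on the transcript strand.
Hist1h1e, chr13:23621782-23621797, minus strand: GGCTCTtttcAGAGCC
Hist1h1c, chr13:23739512-23739527, plus strand: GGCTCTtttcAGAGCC
Hist1h4d, chr13:23581950-23581965, plus strand: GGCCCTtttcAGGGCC
Hist1h4i, chr13:22040966-22040981, minus strand: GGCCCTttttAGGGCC
Hist1h3c, chr13:23745047-23745062, minus strand: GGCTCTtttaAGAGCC
Hist2h2ac, chr3:96220418-96220433, minus strand: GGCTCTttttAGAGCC
Hist3h2a, chr11:58955172-58955187, plus strand: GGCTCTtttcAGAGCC
The spelling of Hist1h1e was shared by 26 members of the H1, H2A, H2B and H3 types, and that of Hist1h4d by 7 H4 genes. The annotated transcript ran on for 1153 bases beyond the stem loop in Hist1h1e, 770 in Hist1h4d, 840 in Hist1h1c and 1643 in Hist3h2a, but for 74 in Hist1h3c and 57 in Hist2h2ac.

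The 250 bases before the start site are shown for 5 members, because the linker genes share a promoter element that most core genes lack. Capitals mark, on either strand, the H1 box (AAACACA), the CCAAT box, the TATA box (TATAAA) and the octamer (ATTTGCAT), as read by a script from RefSeq promoters on GRCm38.p6.
Hist1h1e, chr13:23622559-23622808, minus strand: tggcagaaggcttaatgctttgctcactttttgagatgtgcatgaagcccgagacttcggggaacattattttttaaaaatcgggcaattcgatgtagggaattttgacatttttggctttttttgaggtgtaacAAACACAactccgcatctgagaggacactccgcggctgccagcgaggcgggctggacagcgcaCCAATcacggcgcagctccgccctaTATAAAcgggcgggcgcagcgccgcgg
Hist1h1c, chr13:23738557-23738806, plus strand: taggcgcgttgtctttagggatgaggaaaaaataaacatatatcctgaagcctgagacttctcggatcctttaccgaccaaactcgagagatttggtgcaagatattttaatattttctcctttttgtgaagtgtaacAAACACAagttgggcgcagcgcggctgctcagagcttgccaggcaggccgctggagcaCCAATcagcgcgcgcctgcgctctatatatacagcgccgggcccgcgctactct
Hist1h1b, chr13:21780626-21780875, minus strand: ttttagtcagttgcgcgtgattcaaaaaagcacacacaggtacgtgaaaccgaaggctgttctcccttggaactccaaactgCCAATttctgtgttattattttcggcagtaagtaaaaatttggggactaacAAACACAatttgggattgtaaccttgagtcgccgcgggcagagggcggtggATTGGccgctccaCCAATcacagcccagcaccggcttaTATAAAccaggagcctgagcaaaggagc
Hist1h4d, chr13:23581318-23581567, plus strand: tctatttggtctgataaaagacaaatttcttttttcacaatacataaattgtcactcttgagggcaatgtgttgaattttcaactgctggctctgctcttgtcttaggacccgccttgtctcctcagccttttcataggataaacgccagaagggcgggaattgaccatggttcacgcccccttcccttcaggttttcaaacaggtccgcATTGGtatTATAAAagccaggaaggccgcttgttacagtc
Hist3h2a, chr11:58954435-58954684, plus strand: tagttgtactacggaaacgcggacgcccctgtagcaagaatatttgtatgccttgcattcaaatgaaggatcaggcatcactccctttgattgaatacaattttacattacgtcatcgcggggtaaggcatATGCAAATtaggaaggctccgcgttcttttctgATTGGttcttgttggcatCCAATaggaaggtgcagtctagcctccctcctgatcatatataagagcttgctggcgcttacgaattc
A RefSeq promoter was matched for 62 members, 1 of them with a pair of entries, and the motifs were searched in 300 bases that end 50 bases after the start. The H1 box was in 5 of 6 linker promoters and 4 of 57 core promoters, against 7.18% of all 32851 promoters. The octamer, an element known from H2B promoters, was in 0 of 6 linker and 14 of 57 core promoters, against 1.74% of all. The CCAAT box was in 6 of 6 linker and 48 of 57 core promoters, against 37.4% of all, and TATAAA was in 4 of 6 and 31 of 57, against 13.6%. These are matches of letters and say nothing of what binds there.

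After filtering, 9938 day 21, 5410 day 4 and 4694 control cells were kept, with median depths of 3017, 4438 and 4179 UMIs, where a UMI is a random tag that lets each captured transcript be counted once. The libraries shared 32 cell barcodes between day 21 and day 4, 22 between day 21 and control, and 13 between day 4 and control. Most endothelial-like cells of day 21 formed a cluster of their own, whose values are given separately. Levels are CPM, the counts of a gene scaled to 1000000 counts in the sum over a class and library. They are not divided by gene length, as 3' libraries count transcript ends. With 1 library per group no test between groups was possible, and 95% intervals, Poisson for levels and conditional binomial for ratios, cover counting error only.

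The members held 40066 UMIs in kept cells, and the linker genes took 53.4% of them although they are 6 of 67. Linker genes took 54.5% of member UMIs at day 21, 49.4% at day 4 and 53.6% in the control. The 5 members Hist1h1b, Hist1h1e, Hist1h1c, Hist1h2bc and Hist1h4d carried 62.9% of all member UMIs. In contrast, 30 members had between 1 and 99 UMIs and 3 had none, namely the H2B genes Hist1h2ba and Hist1h2bq and the testis-type linker gene Hist1h1t.

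The linker gene Hist1h1b, known for its expression in dividing cells, had 6511 UMIs at day 21, 644 at day 4 and 417 in the control, or 143, 22.9 and 17.5 CPM of all kept cells. Hist1h1e, a linker gene expressed in most cell types, had 2722 UMIs at day 21, 1794 at day 4 and 1906 in the control, or 59.6, 63.8 and 79.8 CPM. Hist1h1c, a linker gene also made outside S phase, had 2506, 1230 and 1237 UMIs in the same order of libraries, or 54.9, 43.7 and 51.8 CPM. Hist1h1b was thus higher at day 21 over whole libraries, whereas the levels of Hist1h1c lay close together. Hist1h1d and Hist1h1a were also higher at day 21. Hist1h1d had 978 UMIs at day 21, 145 at day 4 and 143 in the control, or 21.4, 5.16 and 5.99 CPM. Hist1h1a had 1026, 46 and 72 UMIs, or 22.5, 1.64 and 3.01 CPM.

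Among core genes, the H2B gene Hist1h2bc had 36.0 CPM at day 21, 39.8 at day 4 and 31.7 in the control. The H4 gene Hist1h4d had 29.3, 23.8 and 29.8 CPM in the same order, and the H2A gene Hist3h2a had 7.80, 25.8 and 20.7. Hist1h2ap, an H2A gene of the Hist1 cluster, had 817 UMIs at day 21, 19 at day 4 and 17 in the control. These totals mix classes whose shares of cells differed between libraries, so the members are compared within classes below.

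Members annotated to end at the stem loop were the least counted. The 22 members annotated to end within a short distance of the stem loop held 9.05% of member UMIs, with a median of 53 UMIs a member. The 24 members with a stem loop and a longer or other transcript held 56.4%, with a median of 241 UMIs. The 21 members with no stem loop in the annotation held 34.5%, with a median of 69, most of it from Hist1h1b and Hist1h2bc. The annotation may lack transcript ends of these genes. For 29 members, at least 50% of their 60-base words occurred among the other members, so reads could be split between copies or dropped. Hist1h2ap shared 92.9% with the other members, most of all with another H2A gene, while Hist1h4d shared 6.95% and Hist3h2a 1.53%. Hist1h1e overlaps a transcript of Hist1h2be on the same strand, so counts of this pair are uncertain. It shared 30.6% of its words with the other members, most of all with Hist1h2be. An antisense gene overlaps 21 members, and no source used here says whether counting took strand into account.

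Endothelial-like cells of the day 21 library had far lower linker histone sums than those of the control, and lower core sums by a smaller factor. Both sums include a gene that chose the set, so they are not independent of that choice. Hist1h1e held 21 of the 57 linker UMIs at day 21 and 630 of 1012 in the control. Hist1h4d held 6 of the 154 core UMIs at day 21 and 246 of 943 in the control. The linker sum was 21.3 CPM at day 21 (16.2 to 27.7), 100.2 CPM at day 4 (93.8 to 107) and 121 CPM in the control (114 to 129), a log2 ratio of -2.49 for day 21 over control (-2.92 to -2.12), or 5.63-fold lower. The core sum was 57.7 CPM at day 21 (48.9 to 67.5), 107 CPM at day 4 and 113 CPM in the control, a log2 ratio of -0.96 (-1.22 to -0.72). For day 4 over control the log2 ratios were -0.27 for linker (-0.40 to -0.14) and -0.08 for core (-0.21 to 0.05). The class comprised 999 cells at day 21, 1673 at day 4 and 1422 in the control, and all 18 endothelial markers were detected in each library. When cells were classed by their own detected markers in place of clusters, the log2 ratios for day 21 over control were -1.24 for linker and -0.39 for core.

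**Figure D1:**
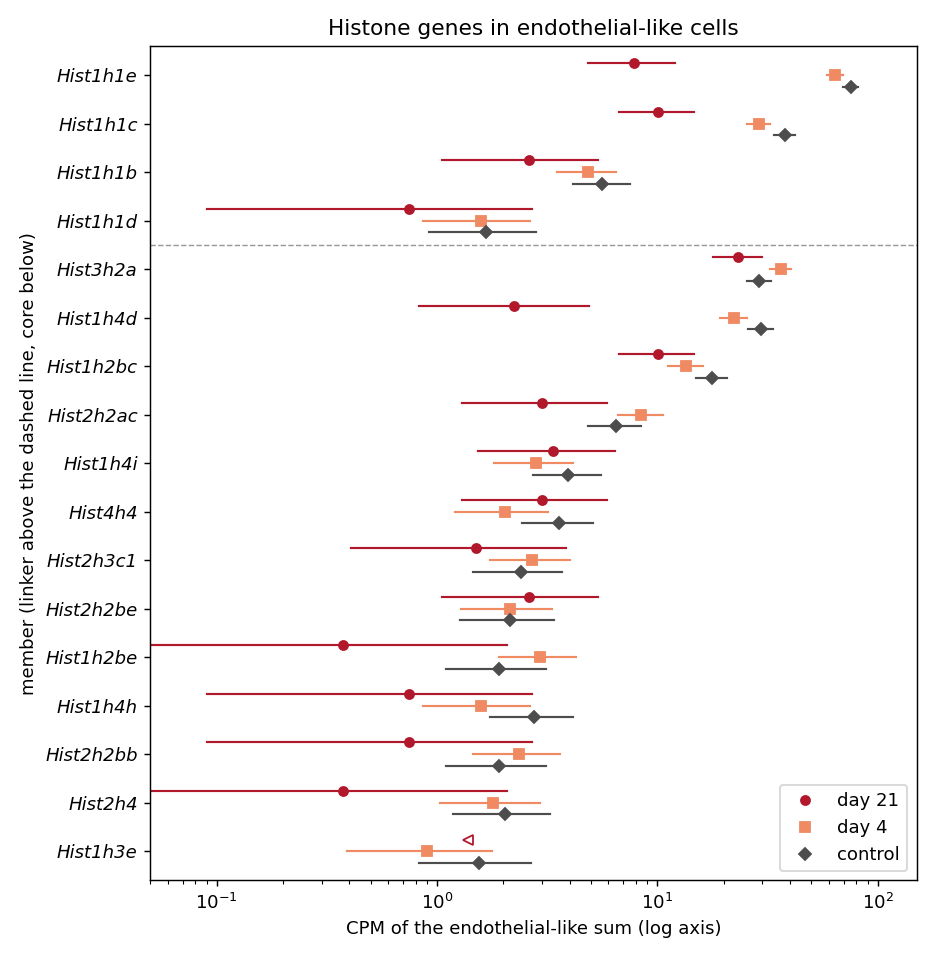
CPM of the 17 members with at least 20 UMIs over the 3 libraries in endothelial-like cells (log axis), with 95% Poisson intervals that are clipped at the left edge. The open triangle is the upper limit of a member with 0 UMIs. Hist1h1e, Hist1h1c and Hist1h4d at day 21 lie left of both other libraries with no overlap of intervals, and Hist3h2a at day 21 lies beside the control.

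Hist1h1e had 21 UMIs at day 21, 570 at day 4 and 630 in the control, or 7.86, 64.2 and 75.4 CPM. Its level at day 21 was 9.37-fold lower than in the control, with a log2 ratio of -3.23 (-3.96 to -2.64). Hist1h1c had 27 UMIs at day 21, 256 at day 4 and 316 in the control, or 10.1, 28.8 and 37.8 CPM, a log2 ratio for day 21 over control of -1.88 (-2.53 to -1.33). For both linker genes the day 21 interval lay below those of the other libraries. Hist1h1b had 7, 43 and 47 UMIs in the order day 21, day 4 and control, or 2.62, 4.84 and 5.62 CPM, and the interval of its log2 ratio of -1.02 reached 0 (-2.49 to 0.05). With classes from each cell's own markers, its direction turned to a log2 ratio of 1.67 (1.19 to 2.16), so no direction is read for Hist1h1b. Hist1h1d had 2, 14 and 14 UMIs, too few for a ratio at day 21, and Hist1h1a and Hist1h1t had too few UMIs in every comparison of this class.

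The core gene Hist1h4d had 6 UMIs at day 21, 198 at day 4 and 246 in the control, or 2.25, 22.3 and 29.4 CPM. That is 12.1-fold lower at day 21 than in the control, with a log2 ratio of -3.60 (-5.17 to -2.57). Other core genes had ratios nearer to 0. Hist2h2ac, an H2A gene, had 8 UMIs at day 21, 75 at day 4 and 54 in the control (log2 ratio -1.03, -2.39 to -0.03), and the H4 gene Hist1h4h had 2, 14 and 23 UMIs (log2 ratio -1.59, -5.01 to 0.14).

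Hist3h2a, the H2A gene of the small Hist3 cluster, had 62 UMIs at day 21, 322 at day 4 and 242 in the control, or 23.2, 36.3 and 29.0 CPM. Its log2 ratio for day 21 over control was -0.31 (-0.75 to 0.09), an interval that includes 0. For day 21 over day 4 it was -0.63 (-1.06 to -0.25), an interval below 0. Hist1h2bc had 10.1, 13.5 and 17.7 CPM at day 21, day 4 and in the control, with a log2 ratio of -0.79 (-1.46 to -0.21) that turned to 0.39 with clusters at resolution 0.5. Hist1h4i was at 3.37 CPM at day 21, 2.82 at day 4 and 3.95 in the control, and Hist4h4 at 3.0, 2.03 and 3.59. Among the H4 genes the log2 ratio ran from -3.60 for Hist1h4d to -0.17 for Hist1h4i (-1.48 to 0.87), which was at 0.90 with classes from own markers (0.17 to 1.59). The intervals of these genes do not overlap, and the difference between them was not tested.

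Of the 67 members, 12 had at least 20 UMIs in the day 21 and control sums of endothelial-like cells. By a 2-fold limit, 6 of these were lower at day 21 (Hist1h1b, Hist1h1c, Hist1h1e, Hist1h4d, Hist1h4h and Hist2h2ac) and 0 were higher, while 5.05% of 11104 genes with as many UMIs were lower and 7.65% higher. Nothing is read from that count, as the same contrast chose the set. Classes from own markers took in more cells, 1529 at day 21 and 2550 in the control. Of 18 members measured there, 4 were lower and 3 higher. The members nearest the limit were Hist1h1b and Hist2h2ac just inside it, at -1.02 and -1.03, and Hist1h2bc just outside at -0.79. The median log2 ratio was -0.90 over the 12 members and 0.09 over all genes measured. Day 21 over day 4, Hist1h1e was at a log2 ratio of -3.0 and Hist1h4d at -3.20, which rest on the same day 21 counts and are a description only.

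At day 4, 17 members had enough UMIs, and 0 were at least 2-fold lower and 0 higher than in the control, against 1.42% lower and 1.51% higher of 11601 genes. Hist1h1e at day 4 over control had a log2 ratio of -0.23 (-0.40 to -0.07) and Hist1h4d of -0.40 (-0.68 to -0.12). Hist3h2a had a log2 ratio of 0.32 (0.08 to 0.57).

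The endothelial-like cells of the day 21 library lay in another cluster than those of the other libraries. Cluster 10 held 931 of the 999 day 21 cells, 2 day 4 cells and 4 control cells. Clusters 2, 4 and 5 held 53 day 21 cells, 1663 day 4 cells and 1410 control cells. Within cluster 5, the linker sum was 4 UMIs or 53.8 CPM in 33 day 21 cells (14.7 to 138), 91.0 CPM in day 4 cells and 111 CPM in control cells (103 to 120), with overlapping day 21 and control intervals. In cluster 2 it was 1 UMI or 25.6 CPM in 13 day 21 cells (0.65 to 142) and 117 CPM in control cells. In cluster 4 it was 0 UMIs in 7 day 21 cells (upper limit 212 CPM) and 78.2 CPM in control cells. Hist1h1e had 0, 0 and 1 day 21 UMIs in clusters 2, 4 and 5. Each cluster alone held too few day 21 UMIs to compare, and the clusters were not summed. In cluster 10 the day 21 linker sum was 15.4 CPM (10.9 to 21.1), with 5.26 CPM for Hist1h1e and 0.81 CPM for Hist1h4d. Cluster 3, a small set of endothelial-like cells, held 15 day 21, 8 day 4 and 8 control cells, and their linker sums were 212 CPM (116 to 356), 1038 CPM (818 to 1299) and 1409.7 CPM (1142 to 1721).

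Other measures differed along with the histone genes. The median depth of endothelial-like cells was 2638 UMIs at day 21, 5276 at day 4 and 5778 in the control, and the median mitochondrial share was 10.2%, 8.21% and 8.04%. The 13 neutrophil markers summed to 2617 CPM at day 21, 15 at day 4 and 15.2 in the control within this class, with 13, 10 and 10 of them detected and Ly6g at 0 in the day 4 and control sums. The 12 neutrophil precursor markers summed to 494, 1.01 and 1.56 CPM, with 12, 4 and 6 detected and Elane, Mpo and Ctsg at 0 in the day 4 and control sums. The 14 hepatocyte markers, all detected in each library, summed to 452, 911 and 1076 CPM. The part of depth, mitochondrial share and these other transcripts in the histone result was not tested. In the class sums, Hist3h2a and Hist1h1e had 62 and 21 UMIs at day 21, 322 and 570 at day 4, and 242 and 630 in the control. Hist1h1e chose the set, so nothing is read from that difference.

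Genes that act on histone production were not lower as a group at day 21. Of 21 measured genes for histone mRNA synthesis and processing, 0 were at least 2-fold lower and 5 higher (Slbp, Cdk2, Ccne2, E2f1 and Nfya). Over all 11104 genes measured, 5.05% were lower and 7.65% higher. The median log2 ratio was 0.39 for the list beside 0.09 for all genes. Slbp, which binds the stem loop, was at 172 CPM at day 21, 92.5 at day 4 and 64.5 in the control, a log2 ratio of 1.41 (1.23 to 1.60). Nfya, a subunit of the factor that binds CCAAT boxes, was highest of the list at a log2 ratio of 1.67 (1.35 to 1.99), and Cpsf3, an endonuclease of histone pre-mRNA processing, lowest at -0.43 (-0.93 to 0.02). Smg1, a kinase of the mRNA surveillance machinery, was at 84.6, 90.7 and 84.0 CPM, and Cpsf2, a partner of Cpsf3, at 56.9, 51.0 and 42.8 CPM, in the order day 21, day 4 and control.

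Of 25 measured S phase genes, 0 were at least 2-fold lower at day 21 and 9 higher, against 5.05% and 7.65% of 11104 genes. Their median log2 ratio was 0.58. Slbp, also on this list, Mcm3 (76.0 CPM at day 21, 53.4 at day 4, 51.7 in the control) and Rfc2 (47.9, 39.5 and 32.2) had the most UMIs. Mcm6, a subunit of the replicative helicase, was highest at a log2 ratio of 1.88 (1.32 to 2.46), and Pola1, the catalytic subunit of DNA polymerase alpha, lowest at -0.49 (-1.35 to 0.23). Of 27 measured G2/M genes, 0 were lower and 23 higher, with a median of 1.43. Top2a, a topoisomerase of dividing cells, was at 40.1 CPM at day 21, 15.1 at day 4 and 11.0 in the control, Cdk1 at 29.6, 18.0 and 12.9, and Cks2 at 22.8, 13.6 and 12.7. The log2 ratios of the list ran from 0.75 for Kif23, a motor protein of cell division, to 2.29 for Plk1, a mitotic kinase. Over all kept cells, the S phase and G2/M genes summed to 3617 CPM at day 21, 756 at day 4 and 710.0 in the control. Transcripts of dividing cells of other classes can enter the endothelial-like sum, which also held 494 CPM of neutrophil precursor markers at day 21. Their part was not tested, so these values are not read as division of endothelial cells.

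Most replacement histones are made throughout the cell cycle from polyadenylated mRNA. Of 11 measured genes of that list, 0 were at least 2-fold lower and 0 higher, with a median log2 ratio of 0.06. H2afz was at 1029 CPM at day 21, 805 at day 4 and 707 in the control, and H3f3a at 422, 606 and 659. The list ran from H3f3b, at -0.72 (-0.79 to -0.66) with 965, 1255 and 1594 CPM, to H2afx at 0.85 (0.46 to 1.23). Of 24 measured histone chaperones and assembly factors, 1 was at least 2-fold lower (Cabin1, -1.02) and 3 higher. Asf1b was highest at 2.26 (0.97 to 3.67), and the median was 0.27. Over all 11104 genes measured, 5.05% were lower and 7.65% higher. The counts of replacement histones and of chaperones lie near these shares, and nothing is read from them. Atrx was at 276 CPM at day 21, 371 at day 4 and 346 in the control, Npm1 at 234, 205 and 226, and Set at 210, 187 and 183. Of 20 immediate early and dissociation-linked genes, 0 were at least 2-fold lower and 12 higher, with a median of 1.2, and their part in the histone result was not tested. Hspa8 was lowest at -0.45, with 823 CPM at day 21, 1604 at day 4 and 1125 in the control, and Hspa1b highest at 4.07 (3.66 to 4.53). Klf2 was at 1416, 350.1 and 1188 CPM in the same order, and Dusp1 at 935, 339 and 521.

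Linker histone levels were lower at day 21 than in the control in 5 other classes of cells whose interval did not reach 0, and higher in Kupffer-like cells. These comparisons use the same 3 libraries, so they are not independent of the endothelial one. The log2 ratio of the linker sum, day 21 over control, was -1.94 in stellate-like cells (-2.33 to -1.59), -1.30 in B-like (-1.71 to -0.93), -1.25 in NK/ILC1-like (-1.78 to -0.77), -0.83 in T-like (-1.09 to -0.59) and -0.57 in conventional dendritic-like cells (-0.87 to -0.27). In Kupffer-like cells, macrophages that reside in liver sinusoids, it was 0.41 (0.16 to 0.66). In each of the 5 classes the core sum had a ratio nearer to 0 than the linker sum, from -0.79 in NK/ILC1-like to -0.32 in conventional dendritic-like cells. The difference between linker and core ratios was not tested. Median depth was lower at day 21 than in the control in all 6 of these classes, at 1998 UMIs at day 21, 6953 at day 4 and 7559.5 in the control for Kupffer-like cells, and the part of depth was not tested.

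**Figure D2:**
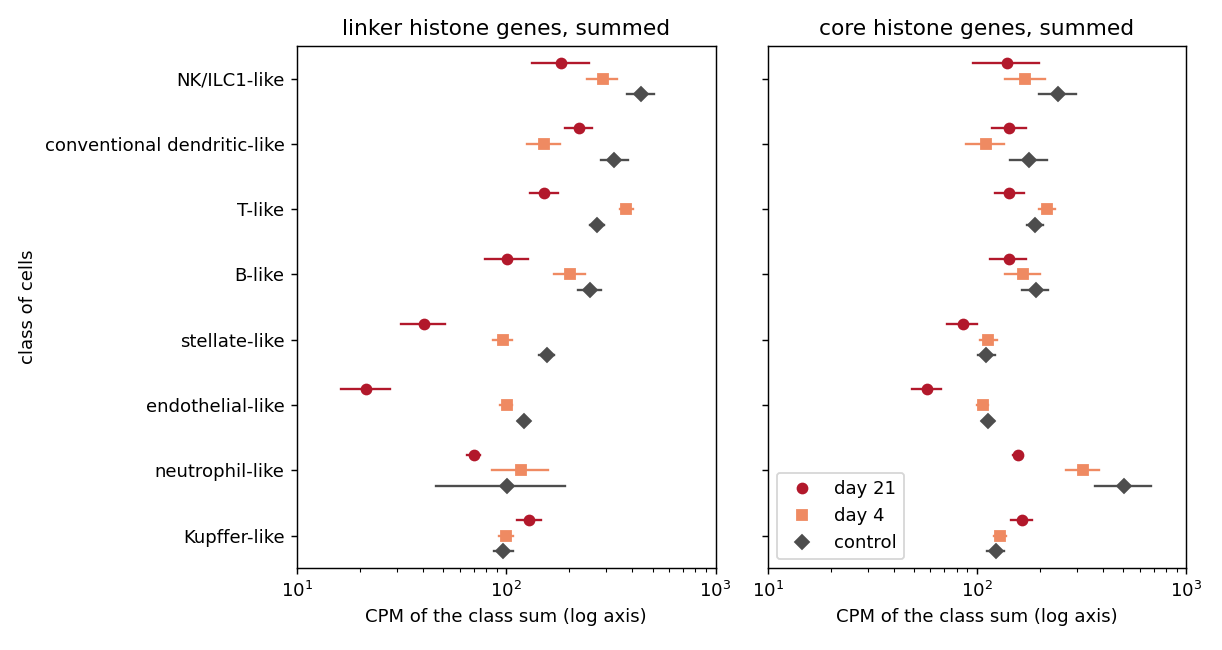
CPM of the summed linker genes (left) and core genes (right) in the 8 classes with at least 50 cells in each library, on log axes with 95% Poisson intervals. The day 21 linker sum of endothelial-like cells is 21.3 CPM against 121 CPM in the control, and that of Kupffer-like cells 129 CPM against 96.8 CPM.

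Stellate-like cells, the vitamin A-storing pericytes of the liver, held 320 cells at day 21, 530 at day 4 and 445 in the control. Hist1h1e had 18 UMIs at day 21, 268 at day 4 and 407 in the control, or 10.7, 68.1 and 103 CPM, a log2 ratio of -3.24 (-4.04 to -2.60) for day 21 over control. Hist1h4d had 6, 90 and 114 UMIs, or 3.56, 22.9 and 29.0 CPM, a log2 ratio of -2.91 (-4.50 to -1.86). In the control, Hist1h1e was higher in stellate-like than in endothelial-like cells, at 103 against 75.4 CPM. Hist1h1c differed less here than in endothelial-like cells, with 27.9 CPM at day 21, 25.9 at day 4 and 38.6 in the control and a log2 ratio of -0.46 (-0.97 to 0.01).

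Hist1h2bc went the other way in stellate-like cells, with 68 UMIs at day 21, 123 at day 4 and 100 in the control, or 40.4, 31.3 and 25.4 CPM. Its log2 ratio for day 21 over control was 0.67 (0.20 to 1.13), and that of Hist3h2a was -0.07 (-0.76 to 0.55). Hist1h1d had 0 UMIs at day 21, 3 at day 4 and 25 in the control. Of 9 members measured, 4 were at least 2-fold lower (Hist1h1d, Hist1h1e, Hist1h4d and Hist2h2ac) and 0 higher, against 5.02% and 7.12% of 10770 genes. At day 4 the linker sum had a log2 ratio of -0.70 over control (-0.89 to -0.51), and 3 of 10 members were at least 2-fold lower (Hist1h1a, Hist1h1d and Hist4h4) and 0 higher, against 1.91% and 1.16% of 11126 genes. Much of that lay in the cells left out when only resting ones were taken, those with under 3 of 1000 thinned UMIs in cell-cycle genes. In 497 resting day 4 and 413 resting control cells the linker sum was 368 and 431 UMIs, or 95.5 and 112 CPM, a log2 ratio of -0.23 (-0.43 to -0.02), and Hist1h1d had 3 UMIs in resting day 4 cells and 2 in resting control cells. For day 21 over control the linker ratio in resting stellate-like cells was -1.43 (-1.83 to -1.06).

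**Figure D3:**
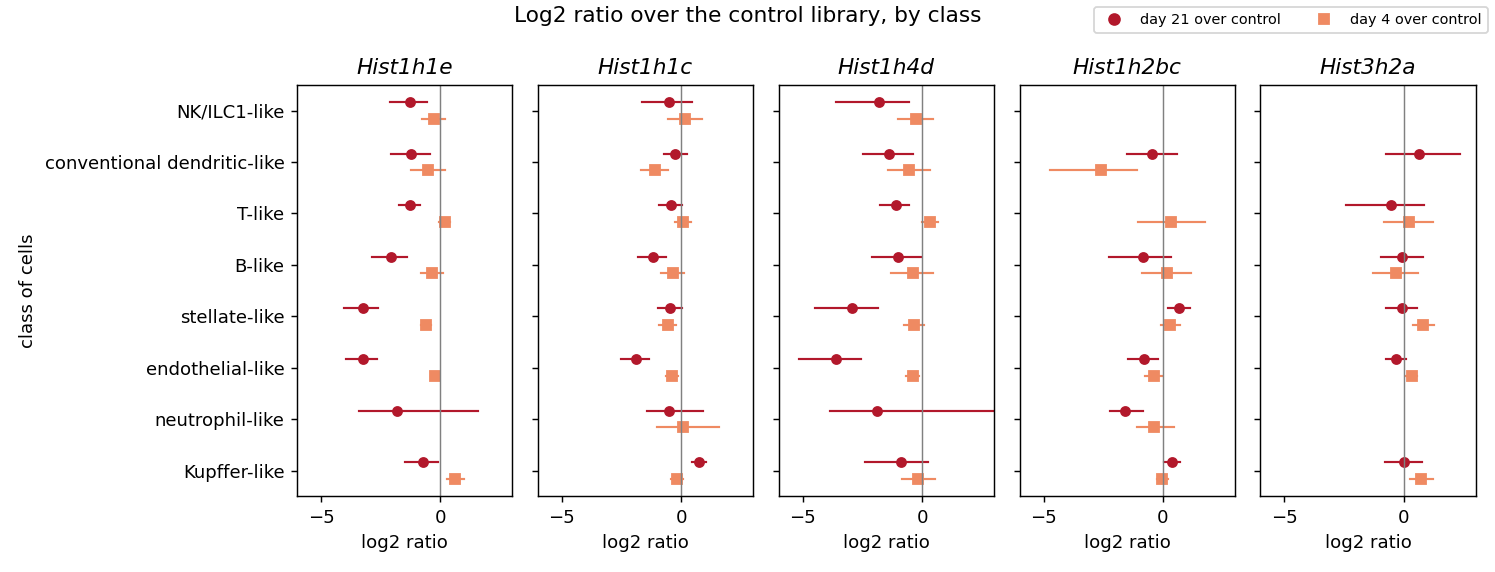
Log2 ratio over the control library of 5 members in the 8 classes, for day 21 and day 4, where the pair of libraries held at least 20 UMIs. Lines are 95% conditional binomial intervals, clipped at -6 and 3. Hist1h1e and Hist1h4d have day 21 ratios below 0 in all classes shown, with intervals that include 0 for both in neutrophil-like cells and for Hist1h4d in Kupffer-like cells, while Hist3h2a intervals at day 21 include 0 wherever it was measured.

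Hist1h1e was also lower at day 21 in lymphoid cells. In B-like cells it had 28.1 CPM at day 21, 93.8 at day 4 and 120.5 in the control, a log2 ratio of -2.07 (-2.86 to -1.41), while Hist3h2a had 28.1, 23.5 and 29.6 CPM. Of 7 members measured there, 3 were at least 2-fold lower (Hist1h1c, Hist1h1e and Hist2h4) and 0 higher, against 3.6% and 9.99% of 6998 genes. In NK/ILC1-like cells 4 of 5 members were lower and 0 higher, against 5.58% and 6.86% of 4622 genes, and Hist1h1e had 78.7 CPM at day 21, 158 at day 4 and 194 in the control. Of those 4, Hist1h1e had the ratio nearest to 0, at -1.27 (-2.12 to -0.55), beside -2.11 for Hist1h1d, -1.80 for Hist1h4d and -1.78 for Hist1h1b (-3.26 to -0.71). In resting cells, Hist1h1b had 0 UMIs at day 21 and 0 in the control, and Hist1h1d had 1 and 9. There the interval of Hist1h4d reached 0 (-1.22, -3.81 to 0.36), while that of Hist1h1e did not (-1.66, -3.12 to -0.61). The linker sum of NK/ILC1-like cells at day 4 over control had a log2 ratio of -0.61 (-0.93 to -0.29) over all cells and of 0.13 (-0.27 to 0.53) in resting cells.

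T-like cells had lower linker levels at day 21 and, over all cells but not over resting ones, higher linker levels at day 4. At day 21, Hist1h1e had 49.1 CPM, against 119.6 CPM in the control, and 4 of 11 members were at least 2-fold lower (Hist1h1e, Hist1h4d, Hist2h2ac and Hist2h2bb) and 0 higher, against 3.09% and 6.91% of 8738 genes. The log2 ratio was -1.61 for Hist2h2bb, -1.40 for Hist2h2ac and -1.27 for Hist1h1e. At day 4 the linker sum was 375 CPM, against 271 CPM in the control, a log2 ratio of 0.47 (0.32 to 0.62). Hist1h1b accounted for most of that, with 312 UMIs at day 4 and 150 in the control, or 143 and 59.4 CPM, a log2 ratio of 1.27 (0.98 to 1.56). In 449 resting day 4 and 600 resting control cells the linker sum was 131 and 134 CPM (log2 ratio -0.03, -0.29 to 0.22), and Hist1h1b had 3 UMIs at day 4 and 5 in the control. The core sum, at a log2 ratio of 0.19 over all T-like cells (0.01 to 0.38), was at -0.39 in resting ones (-0.68 to -0.11). At day 4, 0 of 19 members were at least 2-fold lower and 2 higher (Hist1h1b and Hist1h2ae), against 1.87% and 3.81% of 9220 genes.

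Kupffer-like cells held 733 cells at day 21, 1036 at day 4 and 504 in the control. Hist1h1c had 165 UMIs at day 21, 372 at day 4 and 215 in the control, or 96.7, 50.2 and 57.5 CPM, a log2 ratio of 0.75 for day 21 over control (0.45 to 1.05). Hist1h1e had 24, 269 and 89 UMIs, or 14.1, 36.3 and 23.8 CPM, a log2 ratio of -0.74 (-1.47 to -0.10) at day 21 and 0.60 (0.26 to 0.97) at day 4. The higher linker sum of this class at day 21 was therefore carried by Hist1h1c and not by Hist1h1e. Of 7 members measured at day 21, 0 were at least 2-fold lower and 0 higher, against 5.04% and 6.38% of 9927 genes.

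Conventional dendritic-like cells had lower linker sums at both times. Hist1h1e had 27.4 CPM at day 21, 44.3 at day 4 and 64.3 in the control, and Hist1h1c 102, 56.3 and 121 CPM. The linker sum had a log2 ratio of -1.12 at day 4 over control (-1.46 to -0.79), from 104 day 4 and 64 control cells, and of -0.85 in resting cells (-1.31 to -0.40), 49 of them in the control. Of 7 members measured at day 21, 2 were at least 2-fold lower (Hist1h1e and Hist1h4d) and 0 higher, against 4.41% and 13.4% of 6603 genes. At day 4, 3 of 5 were lower (Hist1h1b, Hist1h1c and Hist1h2bc) and 0 higher, against 3.17% and 4.53% of 6253 genes.

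Neutrophil-like cells held 3042 cells at day 21 but 56 in the control, and their sums held 9794831 and 89076 UMIs. The core sum was 157 CPM at day 21, 321 at day 4 and 505 in the control, a log2 ratio of -1.70 for day 21 over control (-2.11 to -1.23). Of 7 members measured, 6 were at least 2-fold lower and 0 higher, but 54.5% of 7595 genes were lower and 5.24% higher, and the median log2 ratio was -1.81 for the members and -1.14 for all genes. Hist1h2bc was the member with the most UMIs, at 75.7 CPM at day 21, 177 at day 4 and 225 in the control. Hist1h4i had 42.8, 48.2 and 135 CPM and Hist1h2be 12.9, 40.1 and 101 CPM, the control values resting on 12 and 9 UMIs.

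Cells with cell-cycle transcripts had higher levels of most of the members that had enough UMIs to be measured. Each cell was thinned to 1000 UMIs, and cells with at least 3 UMIs over 60 S phase and G2/M genes, none a histone gene, were called cycling. This gave 1997 of 8843 cells at day 21 (22.6%), 156 of 4854 at day 4 (3.21%) and 132 of 4217 in the control (3.13%), and left out 2128 cells under 1000 UMIs. Without thinning, 32.9% of cells at day 21, 33.6% at day 4 and 32.8% in the control held at least 3 UMIs of these genes, where the median cell held 3017, 4438 and 4179 UMIs of any gene, so the unthinned shares do not compare the libraries at equal depth. Scaled to all UMIs of the kept cells, the 60 genes summed to 3617 CPM at day 21, 756 CPM at day 4 and 710.0 CPM in the control. The limit cuts a range, with 387 cells at exactly 3 UMIs and 1133 at 2, and free RNA from dividing cells can enter these calls, which was not tested. With the libraries weighted equally, the linker sum had a log2 ratio of 2.43 in cycling over resting cells (2.27 to 2.60) and the core sum of 1.75 (1.57 to 1.93).

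**Figure D4:**
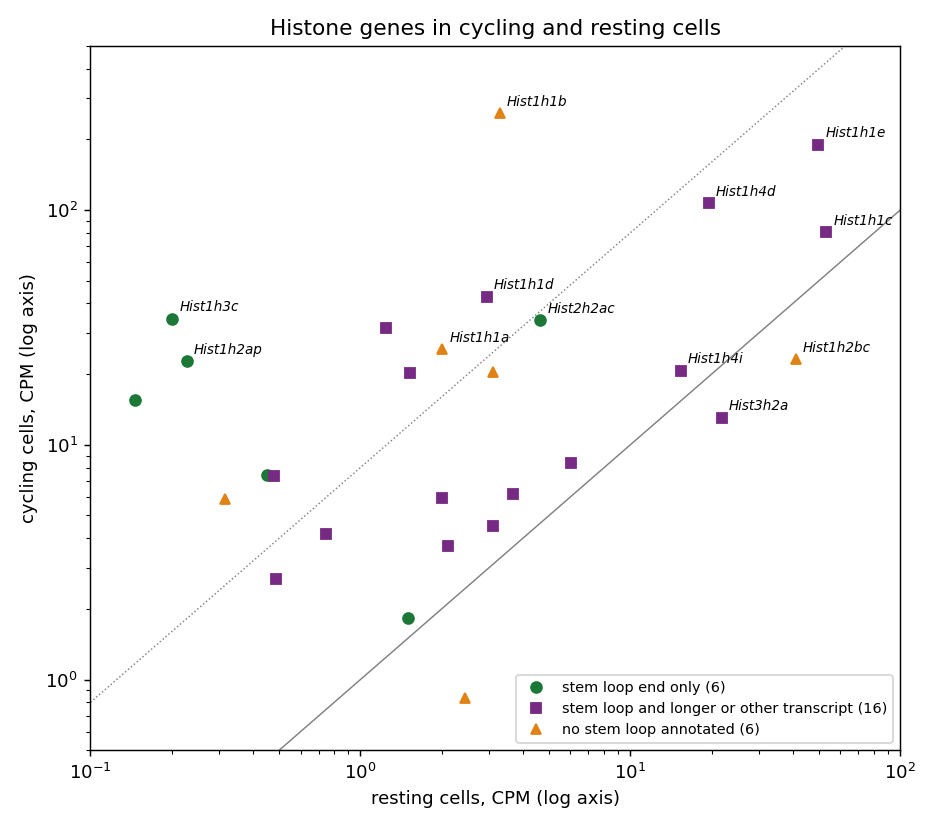
CPM of the 28 members with at least 20 thinned UMIs in cycling (vertical) and resting cells (horizontal), libraries weighted equally, on log axes. The solid line marks equal levels and the dotted line an 8-fold higher level in cycling cells. Hist1h1b lies at 259 CPM in cycling cells against 3.29 CPM in resting cells, and Hist1h2bc lies below equality at 23.1 against 41.1 CPM.

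Of the 28 members with at least 20 thinned UMIs, 19 were at least 2-fold higher in cycling cells, against 11.1% of 12947 genes, and 11 were at least 8-fold higher, against 1.34%. None of the 28 was at least 2-fold lower, against 13.6% of genes. Hist1h3c had the highest log2 ratio, at 7.23 (5.54 to 8.92), with 34.5 CPM in cycling and 0.20 CPM in resting cells from 39 and 3 UMIs. Hist1h1b had 666 thinned UMIs in cycling and 58 in resting cells, a 78.3-fold higher level (log2 ratio 6.29, 5.85 to 6.73). Among other linker genes, the log2 ratio was 3.88 for Hist1h1d (3.17 to 4.58), 3.69 for Hist1h1a (2.94 to 4.44) and 1.94 for Hist1h1e (1.64 to 2.24).

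Hist1h1c, in contrast, had 80.4 CPM in cycling and 53.1 CPM in resting cells, a log2 ratio of 0.61 (0.19 to 1.04). Hist1h4d lay between, at 107 CPM in cycling and 19.5 CPM in resting cells (log2 ratio 2.46, 2.03 to 2.88). Hist1h2bc was at 23.1 CPM in cycling and 41.1 CPM in resting cells (-0.78, -1.54 to -0.02). Its log2 ratio was -1.48 in the day 21 library (-1.99 to -1.03), -0.41 at day 4 (-2.47 to 0.80) and 0.04 in the control (-2.48 to 1.41), and the day 21 cells include the neutrophil-like class, where it was at 75.7 CPM. Hist3h2a was at 13.1 and 21.8 CPM (-0.66, -1.71 to 0.40), and Hist1h4i at 20.7 and 15.4 CPM (0.48, -0.28 to 1.24). Of the 6 measured members annotated to end at the stem loop, 5 were at least 2-fold higher, with a median log2 ratio of 5.29. Of the 16 with a longer or other transcript, 10 were, with a median of 1.83, and of the 6 without an annotated stem loop 4 were, with a median of 3.22.

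Within single classes of the day 21 library the sums differed in the same direction. In monocyte/macrophage-like cells the linker sum was 607 CPM in 610 cycling cells and 106 CPM in 462 resting cells, in neutrophil precursor-like cells 506 CPM in 701 and 111 CPM in 431, and in early B-like cells 1427 CPM in 131 and 198 CPM in 162. These classes had under 50 cells in the day 4 and control libraries and were not compared between libraries. They carried much of the day 21 signal, with linker sums over all their cells of 514, 393 and 862 CPM and core sums of 356, 286 and 518 CPM. Hist1h1b alone was at 417 CPM in early B-like cells.

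Among resting cells alone, Hist1h1e and Hist1h4d were lower at day 21 than in the control in endothelial-like, stellate-like and B-like cells. In resting endothelial-like cells Hist1h1e had 6.15 CPM at day 21, 61.2 at day 4 and 72.2 in the control, a log2 ratio of -3.51 (-4.40 to -2.82) for day 21 over control, and Hist1h4d had 1.64, 21.3 and 28.2 CPM (-3.94, -5.99 to -2.73). In resting stellate-like cells the log2 ratios were -2.85 (-3.69 to -2.19) and -2.67 (-4.26 to -1.60), and in resting B-like cells their intervals ran from -2.77 to -1.29 and from -2.54 to -0.21. For Hist1h1e the interval also stayed below 0 in resting T-like (-1.14, -1.79 to -0.57) and NK/ILC1-like cells (-1.66, -3.12 to -0.61), and it reached 0 in resting Kupffer-like (-0.58, -1.54 to 0.23) and conventional dendritic-like cells (-1.13, -2.47 to 0.09). For Hist1h4d it reached 0 in resting T-like (-0.67, -1.51 to 0.05), NK/ILC1-like (-1.22, -3.81 to 0.36) and Kupffer-like cells (-1.02, -3.16 to 0.41). Endothelial-like cells called cycling made up 6.81% at day 21, 1.52% at day 4 and 1.64% in the control. In those 66 day 21, 25 day 4 and 23 control cells the linker sum was 5, 8 and 11 thinned UMIs, or 75.8 CPM (24.6 to 177), 320 CPM (138 to 631) and 478 CPM (239 to 856).

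Among cycling cells of day 21, the members were not highest where S phase genes prevailed. The core sum was 282 CPM in 741 cells with more S phase than G2/M UMIs and 504 CPM in 1130 cells with more G2/M UMIs, a log2 ratio of -0.84 (-1.07 to -0.61). The linker sum was 484 and 632 CPM in the same order (-0.38, -0.57 to -0.20). Hist1h1a was at 52.6 and 44.2 CPM (0.25, -0.39 to 0.88), and Hist1h4d at 31.0 and 74.3 CPM (-1.24, -1.99 to -0.58). These cells span several classes, whose part in the difference was not tested.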

How the data were processed

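The deposited files hold raw UMI counts of 31053 genes for 3 libraries, restricted by the authors to called cells. Per the file headers they come from Cell Ranger 3.1.0, with build mm10 per the submitters' processing notes. Depth was 51913215, 34833820 and 27191082 UMIs in 12338, 9175 and 6489 barcodes for day 21, day 4 and control. Steps before that are not given in the sources used here.

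Members and gene lists were chosen with earlier results of these data known. A barcode was kept when it had 200 or more genes and no more than 20% mitochondrial UMIs. Doublets marked by Scrublet (0.8% expected per 1000 barcodes) were removed, 732 (6.86%) at day 21, 99 (1.80%) at day 4 and 40 (0.845%) in the control. Cells were clustered with Scanpy 1.11.5 on 2000 variable genes without the members, 30 components, 15 neighbours and Leiden at resolution 1 (igraph 0.11.9, SciPy 1.17.1, pandas 2.3.3, NumPy 2.4.6, Python 3.11.15). A cluster took a class name from at least 3 markers detected in 10% of its cells at 2-fold or more, unless its 10 leading genes over cells outside that class favoured another class. That last definition was set after the clusters were seen, since it had left large endothelial clusters unnamed when leading genes were taken over all other clusters. Shallow clusters with no own marker among those genes stayed unnamed, among them cluster 9 with endothelial markers.

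Counts were summed per class and library, and log2 ratios add 0.5 to each sum and need 20 UMIs in the libraries compared. Named are Hist1h1e, Hist1h4d, the linker genes, the 20 members with the most UMIs, and per gene list the 3 genes with the most UMIs and the highest and lowest ratio; a few others, among them members that set a count, were named after their values were seen. Classes needed 50 cells in each library. The fold, interval and thinning steps were tested on simulated data. Annotation came from GENCODE M21 and promoters from RefSeq. Alternatives covered cell filters, clustering, class calls, scaling, minimum counts, the fold and the cycling limit.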

Additional observations from a re-analysis of the deposited data

Results flagged for a closer look

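Kupffer-like and endothelial-like cells had day 21 over control ratios on opposite sides of 0, with both intervals clear of 0. For the linker sum the log2 ratio was 0.41 in Kupffer-like cells (0.16 to 0.66) and -2.49 in endothelial-like cells (-2.92 to -2.12). For the core sum it was 0.41 in Kupffer-like cells (0.19 to 0.63) and -0.96 in endothelial-like cells (-1.22 to -0.72). With 1 library per group, the difference between the classes was not tested.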

How the results depend on the processing

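No paired analysis was possible because each group was 1 library. Over 16 planned settings, 164 of 184 values stayed within the interval of the value reported or, for counts, within 1.5 times it. With clusters at resolution 0.5, the endothelial-like ratios for day 21 over control were -2.0 for linker and -0.62 for core, and that of Hist1h2bc turned to 0.39. With classes from each cell's own markers they were -1.24 and -0.39, 3 of 18 members measured were at least 2-fold higher, and Hist1h1b was at 1.67 against -1.02. An alternative chosen after seeing the data took resting cells only for the sums of the 7 other classes, where 23 of 28 values stayed within their interval. At day 4 over control it turned the linker ratio of NK/ILC1-like cells to 0.13 and those of T-like cells to -0.033 for linker and -0.39 for core, and the stellate-like linker ratios were -1.43 at day 21 and -0.23 at day 4. Members at least 2-fold lower numbered 3 of 5 measured with cells thinned to 1000 UMIs and 15 of 45 measured with a minimum of 1 UMI, where 5 were higher. Cycling over resting ratios were 1.76 for linker and 1.07 for core at a limit of 2 UMIs, and 3.04 and 2.37 at 5 UMIs. Among the named members, 94 of 102 values stayed within their interval, Hist1h1e ranged from -3.59 to -2.68 and Hist1h4d from -4.39 to -2.53. The causes of these shifts were not tested. Settings of clustering, class calls and scaling leave the cycling ratios as they are and were not rerun for them. Depth limits the members: 55 of 67 had under 20 UMIs in endothelial-like cells of day 21 and control together.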

Other observations

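Basophil/mast-like cells had the highest core sum of the classes with at least 50 cells at day 21. In 88 cells of that library the linker sum was 886 CPM (783 to 999) and the core sum 684 CPM (594 to 784), with 274 CPM for Hist1h1c and 102 CPM for Hist1h2bc. The day 4 and control libraries held 15 and 18 such cells, with linker sums of 1374 and 638 CPM. Early B-like cells had the highest linker level of Hist1h1e at day 21, at 212 CPM (186 to 240.0). The unnamed shallow cluster 9, which carried endothelial markers, had 215 day 21, 639 day 4 and 840 control cells and linker sums of 25.5 CPM (8.28 to 59.5), 53.7 CPM (39.0 to 72.0) and 98.1 CPM (80.7 to 118).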
